A study of Mus musculus with 22 samples.

Results

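Red blood cells and their precursors carry a small set of microRNAs (miRNAs) at high levels, and 5 of these were followed here on Agilent mouse miRNA arrays: mmu-miR-451a, mmu-miR-486a-5p, mmu-miR-486a-3p, mmu-miR-144-3p and mmu-miR-144-5p, given below without the mouse prefix. They were chosen by name, as every array row assigned to 1 of these 5 of the 1881 mouse miRNAs on the array. Each had 2 probes, so that 10 of the 4415 mouse miRNA probes and 150 spots of each array belonged to them. The arrays measured RNA of the small intestine, of serum and of feces of male mice aged 8 weeks. The irradiated mice received X-rays of 10 Gy at 1.0 Gy per minute and the controls 0 Gy. There were 4 arrays per dose for intestine and for feces, 2 arrays for serum at 0 Gy and 4 for serum at 10 Gy, 22 in all. Serum came from heart blood spun in serum separator tubes. The strain, the time from irradiation to collection and the number of animals behind a sample are not given in the sources used here, and the p-values therefore reflect sample-to-sample spread alone, which may be technical in part.

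The genes of miR-144 and miR-451a lie side by side and are transcribed together in red cell precursors under the transcription factor GATA1. miR-451a is unusual in that its hairpin is cut by an Argonaute protein and not by Dicer, and it is the hallmark miRNA of the mature red cell. miR-486a comes from a hairpin inside Ank1, the gene of a red cell membrane skeleton protein, and is also made in muscle. In plasma and serum, miR-451a and miR-486-5p are commonly read as red cell miRNAs, since lysis of red cells during collection releases them. In whole tissue, blood held in the vessels contributes them.

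Mature sequences of 3 of the 5 miRNAs matched in RefSeq (build GRCm38.p6). They are shown because both arms of the miR-144 hairpin and the adjoining miR-451a come from 1 transcript and yet differed in detection. Capitals mark the seed, bases 2 to 8, which pairs with target transcripts.
miR-144-5p: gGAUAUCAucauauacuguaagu
miR-144-3p: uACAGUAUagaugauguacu
miR-451a: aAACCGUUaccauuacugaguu
The 3 seeds differ from each other, and no other mature mouse miRNA of the RefSeq table shares any of them. All lie on the plus strand of chromosome 11, with miR-144-5p at chr11:78073010-78073032, miR-144-3p at chr11:78073047-78073066 and miR-451a at chr11:78073186-78073207. The Mir144 and Mir451a hairpins are 99 bases apart. The hairpins are printed next, with the mature strands in capitals.
Mir144: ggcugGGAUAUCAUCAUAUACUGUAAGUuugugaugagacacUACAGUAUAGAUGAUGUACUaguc
Mir451a: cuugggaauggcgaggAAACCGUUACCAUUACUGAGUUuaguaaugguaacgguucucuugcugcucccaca
The Mir451a hairpin is annotated on the minus strand as well, as Mir451b, which gives a different mature miRNA.
miR-451b: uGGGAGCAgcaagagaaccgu

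Detection was judged array by array: a miRNA counted as detected where the scanner software flagged at least 50% of the spots of 1 or both probes as well above background. By this rule 2 of the 5 members were detected anywhere. miR-451a was detected on 11 of the 22 arrays and miR-486a-5p on 15. miR-451a was found on all 8 intestine arrays, on both serum arrays at 0 Gy, on 1 of 4 serum arrays at 10 Gy and on 0 of 8 feces arrays. miR-486a-5p was found on all 6 serum arrays. It was found on 0 of 4 intestine arrays at 0 Gy and 4 of 4 at 10 Gy, and in feces on 2 of 4 arrays at 0 Gy and 3 of 4 at 10 Gy. The detection of miR-451a thus centred on intestine and unirradiated serum, and that of miR-486a-5p on serum. The software's own call per miRNA was wider, with 12 arrays for miR-451a and 19 for miR-486a-5p. It added replicate 2 of irradiated serum for miR-451a. For miR-486a-5p it added replicates 2 and 4 of control intestine, replicate 1 of control feces and replicate 2 of irradiated feces. Detection below refers to the 50% rule.

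Both arms of miR-144 stayed at background in every sample. Of the 660 spots of miR-144-3p on all arrays, 0 were well above background, and of those of miR-144-5p, 1 was. The summed background-subtracted signal of miR-144-3p ran from -6.40 to 2.23 units and that of miR-144-5p from -2.48 to 2.03. For comparison, the lowest signal of any detected probe on an array was between 9.57 and 13.4. miR-486a-3p, the opposite arm of the hairpin that gives miR-486a-5p, had 0 of 660 spots above background and signals from -7.88 to -3.30. Of the related miRNAs on the array, miR-451b (0 of 660 spots) and miR-486b-3p (1 of 660 spots) were not detected on any array either. No dose comparison was made for these 5 miRNAs. A signal not well above background does not show that the RNA was absent.

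**Figure D1:**
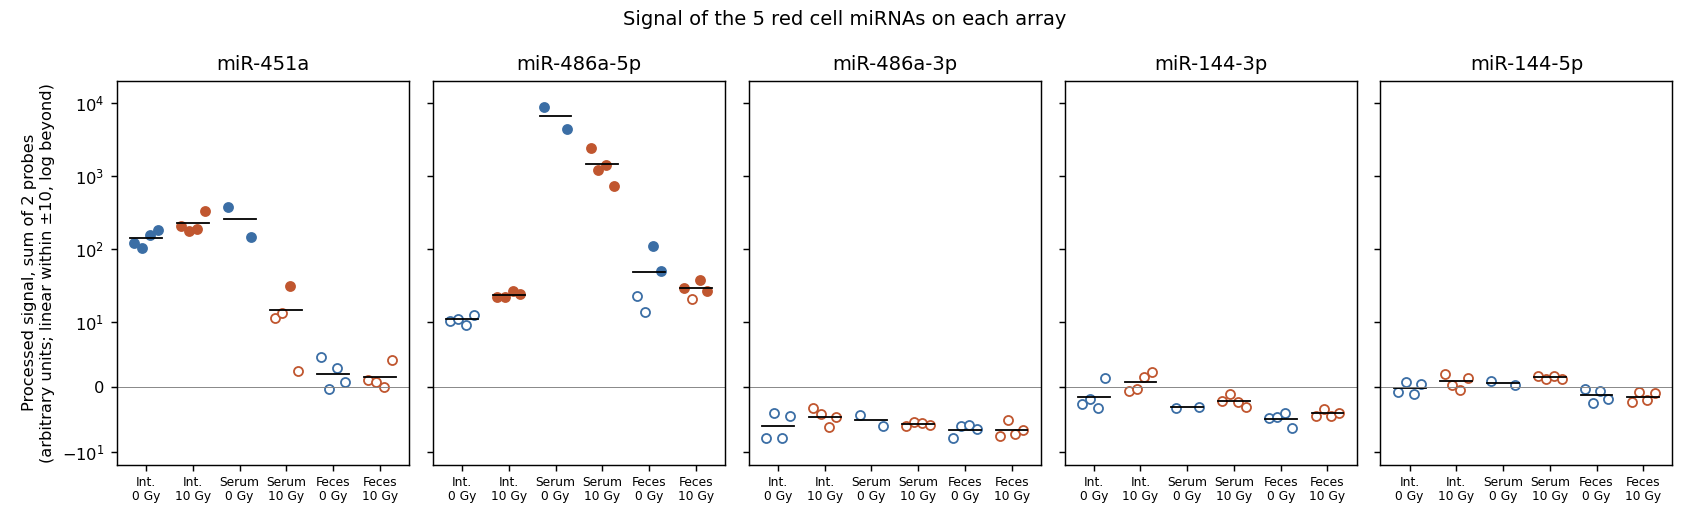
Processed signal of each member, summed over its 2 probes, on each of the 22 arrays by group (Int., small intestine). Points are arrays, blue at 0 Gy and orange at 10 Gy, filled where the miRNA was detected; bars are group means, and the axis is linear within ±10 and logarithmic beyond. Serum miR-486a-5p reaches 8698 units, and the 3 panels on the right stay near 0 in every group.

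In serum, irradiated mice had less of both detectable red cell miRNAs. miR-451a gave summed signals of 375.0 and 144.3 at 0 Gy, against 11.4, 13.2, 31.6 and 2.40 at 10 Gy. Both control values lay above all 4 irradiated values, and only replicate 3 of the irradiated samples was still detected. miR-486a-5p gave 8698 and 4461 at 0 Gy, against 2392, 1206, 1426 and 729 at 10 Gy. All 6 values were far above background and the groups again did not overlap.

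For testing, each serum array was scaled by the 75th percentile of the 121 miRNAs that all serum arrays detected, and its values were raised to a floor near the detection limit and compared on the log2 scale with limma. That percentile was itself 224 to 517 units at 0 Gy and 128 to 308 at 10 Gy. miR-451a fell by 3.41 ± 0.49 on the log2 scale (SE of the fit; 2 against 4 arrays), 10.6-fold, with a Benjamini-Hochberg adjusted p of 0.0152. Of the 4 irradiated arrays 2 sat at the floor, and 3 of 4 did not detect it, so the size of this change depends on the floor and on the background. With normexp background correction it was -0.89 (adjusted p = 0.00171), and over the other alternatives it ran down to -4.04. The normexp setting, here and below, added an offset of 50 units to every spot, which masks changes of miRNAs with signals well below it. miR-486a-5p fell by 1.46 ± 0.25, 2.76-fold (adjusted p = 0.0239), the eighth most negative change. Of all serum miRNAs tested, 4.66% passed, 3.63% passed as lower at 10 Gy, and 30.1% had scaled values that did not overlap between the doses.

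Both probes of each miRNA moved the same way. Probe A_54_P1625 of miR-451a read 125.3 and 46.1 units at 0 Gy, and 5.12, 4.50, 10.99 and 1.17 at 10 Gy, where it was detected on no array. On the detection limit it was at least 4.18-fold lower. In the limma fit (adjusted p = 0.00046) all of its irradiated values sat at the floor for probes. They had no spread there, so that p-value rests on the controls and the floor. With normexp the change of this probe was -0.51 (adjusted p = 0.0705). Probe A_54_P1626 read 249.8 and 98.1 at 0 Gy, and 6.25, 8.67, 20.6 and 1.24 at 10 Gy, with 15 of 15 spots above background on replicate 3 and at most 4 on the others. It fell by 3.10 ± 0.29 (adjusted p = 0.00969). The probes of miR-486a-5p fell by 1.45 ± 0.21 and 1.48 ± 0.22 (adjusted p = 0.0283 for each), from 2573 to 4942 and 1888 to 3756 units at 0 Gy. At 10 Gy they read 420 to 1350 and 309 to 1042 units. Of all serum probes tested, 4.19% passed.

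**Figure D2:**
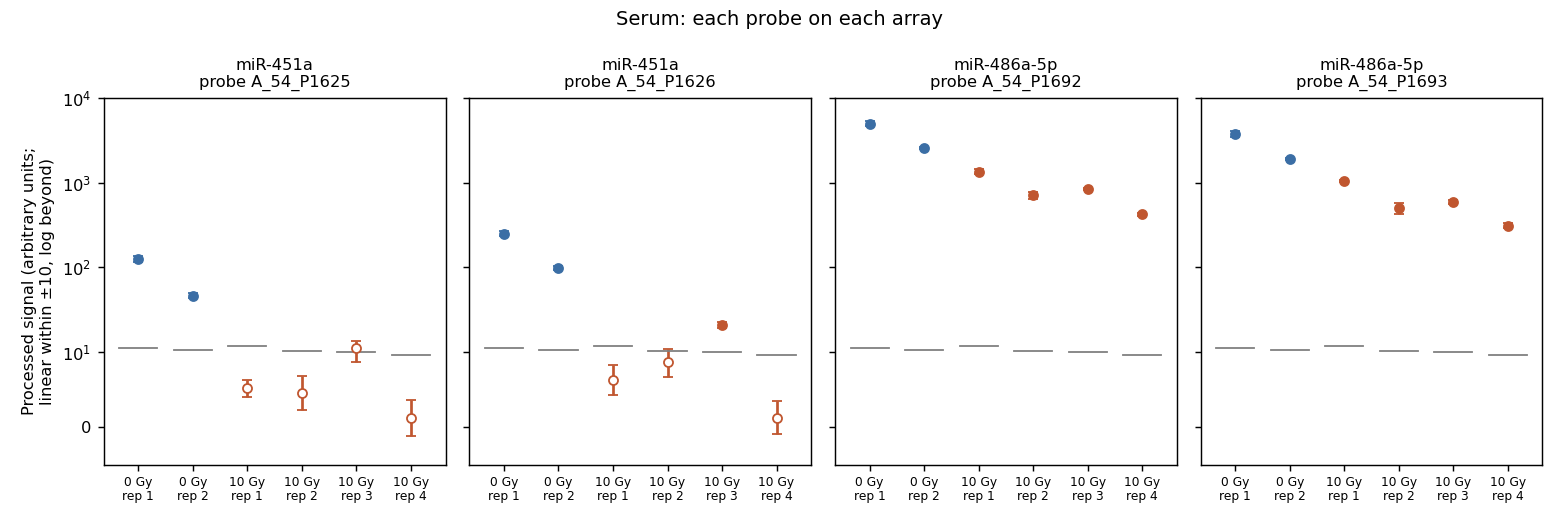
Signal of the 4 probes of miR-451a and miR-486a-5p on each serum array, with the SD over the spots of the probe (blue 0 Gy, orange 10 Gy; filled where at least 50% of spots were well above background). Grey lines mark the lowest signal of any detected probe on that array; the axis is linear within ±10 and logarithmic beyond. Both controls lie above all 4 irradiated arrays at every probe, and at 10 Gy the miR-451a probes lie below the grey lines on all arrays but replicate 3.

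For the serum probes of miR-486a-5p the coefficient of variation over the spots of an array, which is technical spread alone, ran from 2.99% to 14.2%. For those of miR-451a at 10 Gy, near background, it reached 208%. The 2 controls carry the test: without replicate 1 or replicate 2 of the 0 Gy group, the change of miR-451a was -3.32 or -3.49 (adjusted p = 0.178 and 0.187) and that of miR-486a-5p -1.59 or -1.34 (0.178 and 0.187). Without replicate 4 of the 10 Gy group miR-486a-5p fell by 1.39 (adjusted p = 0.0569). Each of the 2 slide rows held both doses. Within row 1 alone the changes of miR-451a and miR-486a-5p were -3.61 and -1.09, and within row 2 alone -3.20 and -1.84, with 1 control array in each row and no call. Both calls were lost when all 1881 miRNAs were tested (adjusted p = 0.202), and that of miR-486a-5p without scaling (-2.24, adjusted p = 0.127). On the serum slide both controls lay in column 2 and the irradiated samples in columns 3 and 4, and on the other slides the controls lay in columns 1 and 2, so the dose cannot be told apart from the column.

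miR-23a-3p, which is commonly read beside miR-451a when serum is judged for lysis because red cells hold little of it, was detected on all 22 arrays. In serum it gave 276.6 and 105.9 units at 0 Gy and 174.9, 84.8, 523.3 and 73.2 at 10 Gy, with overlapping groups. Scaled, its irradiated values lay above both controls, with a change of 0.63 ± 0.55 (adjusted p = 0.60). Replicate 3 at 10 Gy held the highest miR-23a-3p value and also the highest irradiated miR-451a value, and without that array the change of miR-23a-3p was 0.17. Of 24 other miRNAs that are abundant in red cells and also in many other cells, 3 could be tested in serum and 0 passed (limma; 1 had an unadjusted p under 0.05). Their changes were -1.63 ± 0.36 for miR-25-3p (adjusted p = 0.0505, and passing in 4 of 20 alternatives and without replicate 3 at 10 Gy), -1.29 ± 0.58 for miR-92a-3p and -0.03 ± 0.26 for miR-22-3p. The median of these was -1.29, against -0.11 over all serum miRNAs tested. miR-25-3p was detected on 2 control arrays and 1 irradiated array, so it entered the test through the controls and its change depends on the floor.

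Of the marker miRNAs of other cell types, 1 fell and 1 rose in serum, where 4.66% of all miRNAs tested passed. Of the 4 endothelial and platelet miRNAs only miR-222-3p was tested, and it fell by 1.67 ± 0.35 (adjusted p = 0.0436). It was detected on 2 control arrays and 1 irradiated array. It thus entered the test through the controls, and the size of its change depends on the floor. The scaled sum of that list was 0.136 to 0.171 at 0 Gy and 0.0507 to 0.0896 at 10 Gy. Of the 8 leukocyte miRNAs only miR-342-3p was tested, with a change of 0.57 ± 0.35. The sum of the leukocyte list, scaled in the same way and with undetected members counted, ran from 0.468 to 0.603 at 0 Gy and from 0.490 to 1.16 at 10 Gy. Of the 9 epithelial miRNAs only miR-375-3p was tested, and it rose by 2.61 ± 0.47 (adjusted p = 0.0280). The smooth muscle miRNAs miR-145a-5p (0.07 ± 0.21) and miR-133a-3p (0.21 ± 0.72) were tested and did not pass. How far red cell lysis, red cell number or platelet content set the serum levels of miR-451a and miR-486a-5p was not tested. In samples of this kind fewer cells of a type and less RNA per cell cannot be told apart.

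In the small intestine, miR-451a was present in every sample and its dose groups overlapped. Its summed signal was 119.1, 101.8, 154.3 and 184.5 at 0 Gy and 209.0, 173.8, 186.1 and 332.4 at 10 Gy. Only the lowest irradiated value fell within the control range. After scaling over the 269 miRNAs detected on all intestine arrays, the change was 0.21 ± 0.26 (95% interval -0.43 to 0.86, adjusted p = 0.547; 4 against 4 arrays). The unscaled signals gave 0.68 (adjusted p = 0.0461), and weighting arrays by their quality gave 0.62 (0.0255). The probes gave 0.26 ± 0.26 and 0.19 ± 0.26, with 38.9% of all intestine probes passing. Of all intestine miRNAs tested, 41.2% passed, 26% as higher and 15.2% as lower at 10 Gy.

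miR-486a-5p was near background in the intestine. Its summed signal was 10.4, 10.96, 9.52 and 12.5 at 0 Gy and 22.3, 22.2, 26.3 and 23.98 at 10 Gy. Every irradiated sample lay above every control, as it did for 38.5% of all intestine miRNAs tested. By the 50% rule no control array detected it, so that it entered the test through the irradiated arrays alone. The software's own call was positive on control replicates 2 and 4. The fitted change of miR-486a-5p, 0.66 ± 0.18 (adjusted p = 0.0118), is set against a group below detection by the 50% rule. Probe A_54_P1693 was detected on no intestine array. Probe A_54_P1692, detected on 4 of 4 irradiated and 0 of 4 control arrays, read 6.56 to 8.95 units at 0 Gy and 13.6 to 15.8 at 10 Gy. Scaled and raised to the floor for probes, its change was 0.07 ± 0.14 (adjusted p = 0.724), and no fold can be given since the bound fell below 1. The summed value missed the threshold when the floor was set 2 times higher (0.04, adjusted p = 0.748) and without replicate 3 of the 0 Gy group (0.57, adjusted p = 0.0504). It turned with normexp background correction (-0.10, adjusted p = 0.318), where the added offset of 50 units lay above its signals. Over 20 alternatives other than leaving out 1 array, 9 lost the call.

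Of the 24 other red cell miRNAs, 22 were tested in the intestine, where 8 fell and 2 rose (15.2% and 26% of all intestine miRNAs did), with a median change of -0.34 against 0.16 over all miRNAs tested. The largest changes were those of miR-15b-5p (-0.94 ± 0.20), miR-22-3p (0.80 ± 0.18), miR-210-3p (0.79 ± 0.19) and miR-20b-5p (-0.74 ± 0.19). With no scaling the split was 5 higher and 1 lower, with the percentile of the 81 miRNAs 0 and 2, and with no filter or 1 fit of all 6 groups 0 and 0, so the count and its direction depend on the processing. miR-15b-5p and miR-20b-5p also belong to the miRNAs of dividing cells, and miR-210-3p is the classic hypoxia miRNA. miR-23a-3p rose by 0.54 ± 0.17 (adjusted p = 0.0249), a call lost in 5 of 8 fits that left out 1 array. The labelled tissue carried its own markers: 9 of 9 epithelial miRNAs were detected on all intestine arrays, and 5 of them fell at 10 Gy, beside 15.2% of all intestine miRNAs. Of the 8 leukocyte markers 3 fell, 2 rose and 3 did not pass; miR-150-5p fell by 2.32 ± 0.43 and miR-223-3p rose by 1.20 ± 0.19. The part of these cells in the miR-451a and miR-486a-5p signals was not tested.

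**Figure D3:**
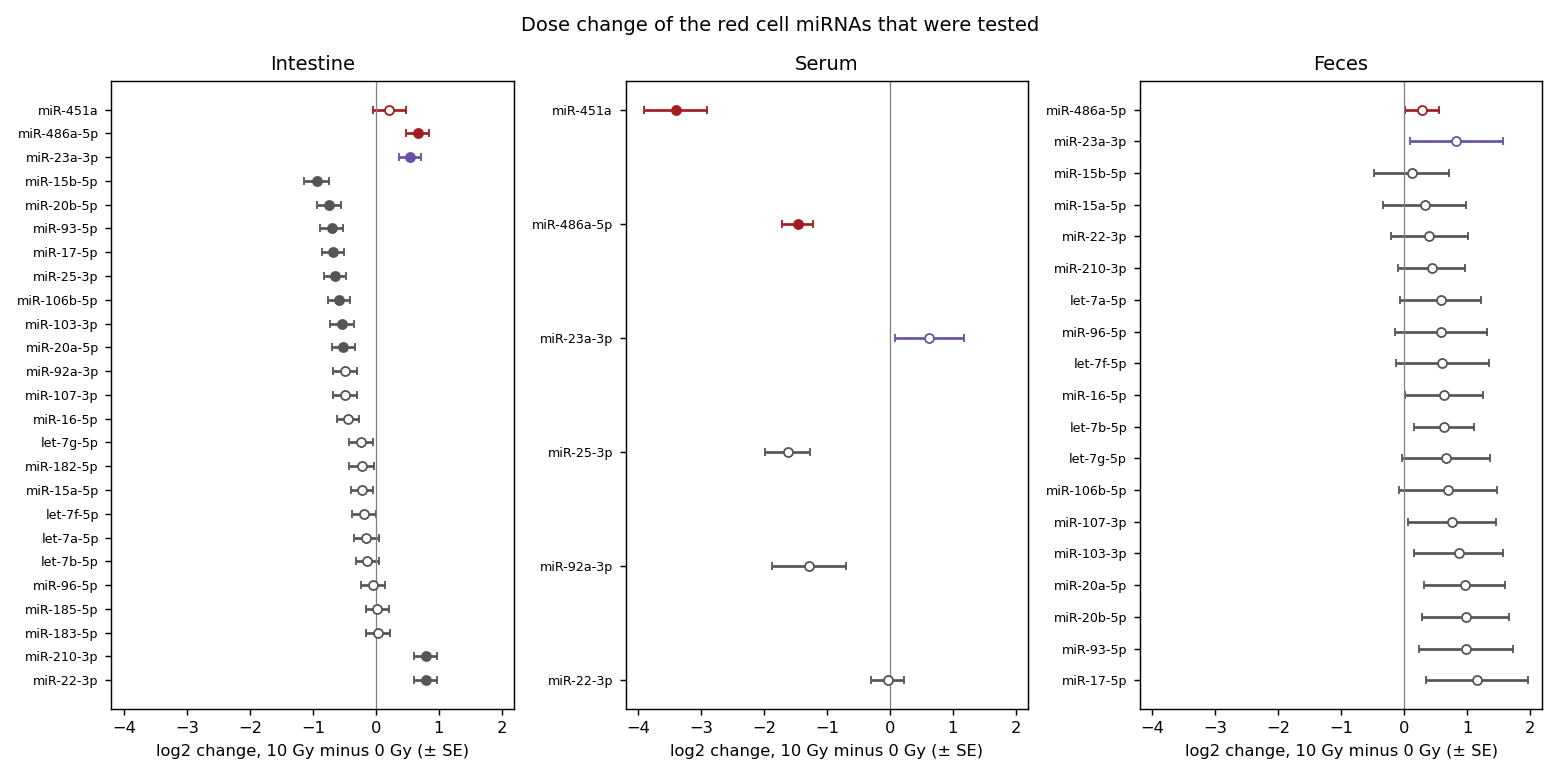
Change with dose (log2 value at 10 Gy minus 0 Gy, ± SE of the limma fit) of the tested members (red), miR-23a-3p (purple) and the other red cell miRNAs (grey) in each sample type; filled points passed an adjusted p of 0.05. The serum panel holds the most negative member value, miR-451a at -3.41, while in the intestine its point lies at 0.21.

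In feces, miR-451a was not detected and miR-486a-5p did not change detectably with dose. The summed signal of miR-451a lay between -0.35 and 4.66 units on the 8 arrays, with 0 of 240 spots above background. miR-486a-5p gave 22.7, 13.7, 108.4 and 49.8 units at 0 Gy and 29.6, 20.4, 38.1 and 27.0 at 10 Gy. The control range enclosed all irradiated values. The highest value, of replicate 3 at 0 Gy, came from the array with the largest scaling percentile (2627 units, against 529 to 1668 on the other control arrays). After scaling over the 326 miRNAs detected on all feces arrays, the change was 0.29 ± 0.27 (95% interval -0.37 to 0.95, adjusted p = 0.463). Both probes gave values of this kind, 0.23 ± 0.24 and 0.30 ± 0.26, where 9.11% of all fecal probes passed. Of all fecal miRNAs tested, 7.54% passed. Of the other red cell miRNAs 17 were tested and 0 passed (limma; 0 had an unadjusted p under 0.05), with a median of 0.64 against 0.15 over all fecal miRNAs tested.

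The order of the sample types differed between the 2 detected miRNAs. Levels were compared in 1 limma fit of all 6 groups over 749 miRNAs, scaled by the 81 miRNAs detected on all 22 arrays. Each sample type was hybridised on its own slide, so that the type of sample cannot be told apart from the slide. On this log2 scale miR-451a had means of -1.18 ± 0.21 in control serum (SD, n = 2), -1.94 ± 0.87 in irradiated intestine (n = 4), -2.04 ± 0.46 in control intestine (n = 4) and -4.91 ± 1.26 in irradiated serum (n = 4). In feces it was at the floor of -6.41 on all 8 arrays. The fit pools the spread of all 6 groups, and the feces groups had an SD of 0. This lowers the pooled spread behind the SEs and p-values of this fit, which are therefore too favourable. The first 3 neighbours in this order did not differ beyond their spread: control serum exceeded control intestine by 0.86 ± 0.59 (adjusted p = 0.296), with 46.5% of all miRNAs passing in that comparison. Quantile normalization raised this difference to 2.82 (adjusted p = 0.000438) and the percentile over all miRNAs to 1.64 (adjusted p = 0.0118). In the irradiated groups serum was below intestine by -2.96 ± 0.48 (adjusted p = 3.66e-05, 57.1% of all passing). With normexp background correction this was -0.34 (adjusted p = 0.141). Irradiated feces lay a further -1.51 ± 0.48 below irradiated serum (adjusted p = 0.0152, 46.2% of all passing), a call lost without replicate 2 or 3 of irradiated serum (adjusted p = 0.0585 and 0.0676). Neither probe passed on its own (-0.25 and -0.71, adjusted p = 0.954 and 0.227), and with 1 of these 8 arrays detecting miR-451a the difference is set by the floor.

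miR-486a-5p had its highest level in serum by a wide margin. Its means were 3.56 ± 0.09 in control serum (SD, n = 2), 2.07 ± 0.29 in irradiated serum (n = 4), -5.14 ± 0.51 in irradiated intestine (n = 4) and -5.70 ± 0.29 in control intestine (n = 4). Control serum exceeded control intestine by 9.26 ± 0.24 (adjusted p = 5.48e-15), and irradiated serum exceeded irradiated intestine by 7.21 ± 0.20 (adjusted p = 2.96e-15). Here too the feces groups sat at the floor with an SD of 0, which lowers the pooled spread behind these SEs and p-values. Since control intestine was below detection, the first difference is also given as a bound, at least 236-fold and at least 316-fold by the 2 probes. These bounds hold on the common scale only. Over 5 alternatives the fitted difference of the controls ran from 5.38 to 11.3 and passed in each.

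Feces held the lowest scaled levels of both. miR-451a in control intestine was at least 44.4-fold and 73.4-fold higher than in control feces by its 2 probes, and in control serum at least 69.7-fold and 143.7-fold higher. These bounds hold on the common scale only, whose percentile was highest in feces. Over 5 alternatives the fitted log2 difference of control feces ran from -4.50 to -1.29 against control intestine. Against control serum it ran from -6.85 to -1.64, and all of these passed. miR-486a-5p was at the common floor on all 8 feces arrays, although 5 of them detected it, because the common percentile in feces was 2449 to 17587 units against 216 to 770 in serum and 494 to 1215 in intestine. Its unscaled signal in control feces, 13.7 to 108.4 units, lay above that of control intestine, 9.52 to 12.5. The order of feces and intestine for miR-486a-5p therefore turned with the scaling.

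**Figure D4:**
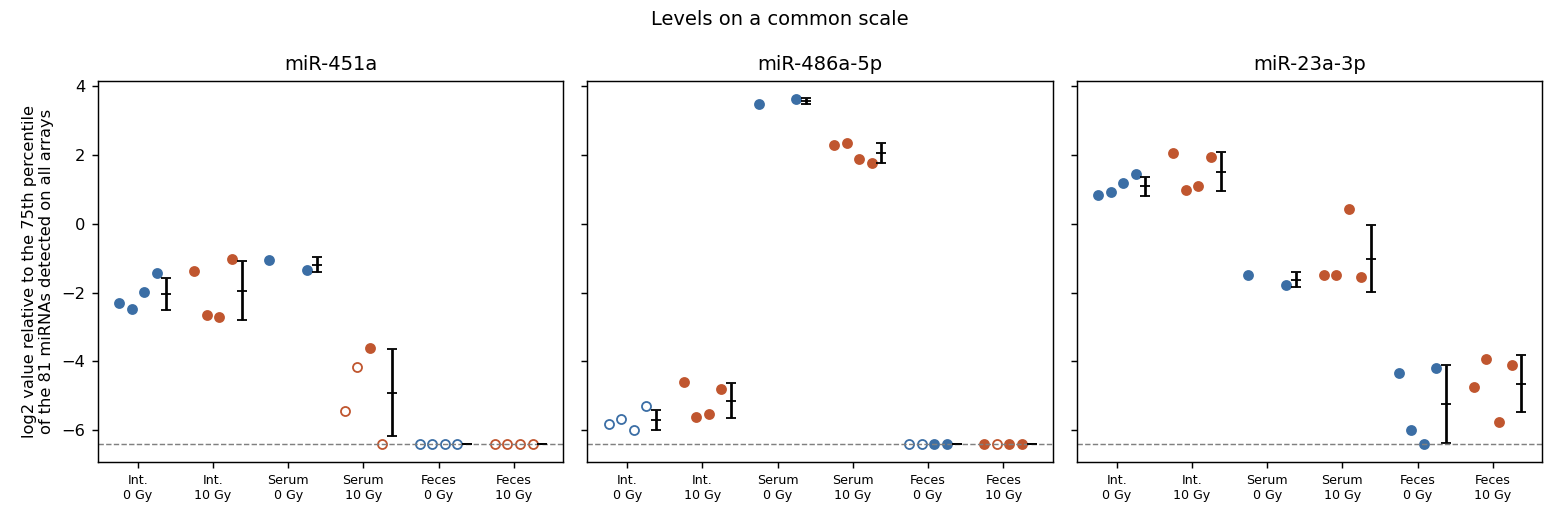
Log2 levels of miR-451a, miR-486a-5p and miR-23a-3p on each array, scaled by the 75th percentile of the 81 miRNAs detected on all arrays; black bars are group means ± SD, filled points were detected, and the dashed line is the floor. The lowest serum value of miR-486a-5p is 1.76 and the highest of the other sample types -4.61, whereas miR-451a in control serum, at -1.33 and -1.04, overlaps the intestine range of -2.71 to -1.01.

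The drop with dose was tested for a difference between sample types in the same fit. The change of miR-451a in serum was lower than that in intestine by -3.82 ± 0.76 (adjusted p = 0.0037), and that of miR-486a-5p by -2.05 ± 0.31 (adjusted p = 0.000404). Of all 749 miRNAs, 7.74% passed this test. Against feces the differences were -3.72 ± 0.76 (adjusted p = 0.0082) and -1.49 ± 0.31 (adjusted p = 0.00866), where 5.07% passed. In feces both sat at the floor in this fit, so these values equal the serum change. The feces arrays thus added no spread, which lowers the SEs and p-values of all differences in this fit. Feces and intestine did not pass for miR-451a (-0.10) or miR-486a-5p (-0.56), with 10.9% of all passing. With normexp background correction the miR-451a differences were -0.69 against intestine and -0.80 against feces (adjusted p = 0.0642 and 0.162).

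Other miRNAs with a like pattern over the arrays were ranked by Pearson correlation of log2 levels, as a description, since samples of a group and all arrays of a type share their preparation. Over 22 arrays miR-451a followed miR-92a-3p (0.93), miR-30e-5p (0.92), miR-25-3p (0.92), miR-29a-3p (0.89) and miR-5100 (0.89), among 263 candidates. Within the 6 serum arrays its nearest miRNAs were miR-30d-5p (0.996), miR-25-3p (0.97) and miR-222-3p (0.97). Within the 8 intestine arrays they were miR-10b-5p (0.91), let-7i-5p (0.91) and miR-7a-5p (0.91). The list of other red cell miRNAs and the endothelial and platelet list each gave a neighbour in serum, and neither did in the intestine. The serum neighbours were themselves lower at 10 Gy (miR-30d-5p -1.04, miR-25-3p -1.63, miR-222-3p -1.67). At 10 Gy miR-25-3p and miR-222-3p were each detected on 1 serum array only. These correlations thus largely repeat the dose difference, and a shared cell source was not tested.

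miR-486a-5p had other neighbours. Over 22 arrays they were miR-5113 (0.97), miR-6978-5p (0.96), miR-7674-5p (0.95), miR-3473e (0.95) and miR-3473f (0.94), and none of them was among the 5 nearest to miR-451a. In serum they were miR-1198-5p (0.96), miR-125b-5p (0.96) and miR-7031-5p (0.96), in intestine miR-490-3p (0.99), miR-320-3p (0.98) and miR-379-5p (0.96), and in feces miR-134-5p (0.85), miR-8107 (0.85) and miR-6966-5p (0.84). Each serum neighbour was detected on 2 control arrays and 0 irradiated arrays. In intestine, miR-490-3p and miR-379-5p were detected on 0 control and 4 irradiated arrays. The serum and intestine correlations thus rest in part on values below detection that separate by dose.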

How the data were processed

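RNA of 22 samples was labelled with Cy3 and hybridised to 1 array each, on 3 slides. The authors extracted the deposited intensity with Agilent Feature Extraction 11.5, per the submitters' processing notes, and background is already subtracted per spot, per the file headers. This processed signal is linear and not normalized between arrays. Other deposited columns were flags, read from the file headers as 0 or 1. No spot was saturated. The authors' series table held the same values. Signals were averaged over the non-outlying spots of a probe, summed over probes, scaled and compared with limma 3.58.1 (R 4.3.3, lmFit and eBayes, Benjamini-Hochberg adjustment, threshold 0.05), over miRNAs whose detected arrays numbered no fewer than the smaller group. The script was tested on simulated data. The floor was the median over arrays of the lowest scaled detected value. The number of arrays limits precision. Named were all members, their relatives on the array, miR-23a-3p, up to 4 other red cell miRNAs by size of change per sample type, marker miRNAs and the nearest miRNAs by correlation. Marker miRNAs of single lists were named after their values were seen. Members and lists were chosen with earlier results of these data known. Alternatives varied the background correction (normexp with an offset of 50 units), scaling, filter, floor, probe summary, fit and samples. RefSeq supplied sequences; the array design names another build, so no other coordinates are given.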

Additional observations from a re-analysis of the deposited data

Results flagged for a closer look

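The change of miR-451a with dose differed between sample types in the fit of all 6 groups, with a serum minus intestine difference of -3.82 and a serum minus feces difference of -3.72. For miR-486a-5p the same tests gave -2.05 and -1.49. In feces both miRNAs were at the floor of this fit.

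miR-23a-3p in serum replicate 3 at 10 Gy, at a scaled log2 value of 1.01, stood apart from the other 3 irradiated serum samples, which lay between -0.83 and -0.81. The limit used for such a gap is one that about 1 in 20 groups pass by chance.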

How the results depend on the processing

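Of 102 refits of the 5 member dose changes under alternatives other than leaving out 1 array, 78 kept direction and side of the threshold, 18 lost a call, 2 gained one and 4 turned. Except where a setting tested more miRNAs or fewer arrays, the cause was not tested. In the intestine miR-451a turned with normexp background correction (-0.017) and the percentile over all miRNAs (-0.30), and passed with no scaling (0.68) and with array weights (0.62). Intestine miR-486a-5p turned with normexp (-0.10) and lost its call with the percentile over all miRNAs (0.15), quantile normalization (0.20), the percentile of the 81 miRNAs (0.55), no filter (0.66), a floor 2 times higher (0.043), the mean over detected probes (0.070), the brightest probe (0.10), slide row 1 (0.68) and slide row 2 (0.65). In serum, miR-451a and miR-486a-5p lost their calls with no filter (-3.41 and -1.46), the replicate block (-3.53 and -1.22), slide row 1 (-3.61 and -1.09) and slide row 2 (-3.20 and -1.84), and miR-486a-5p with no scaling (-2.24). Fecal miR-486a-5p turned with no scaling (-0.36). The rows of a slide were split, and the software's total gene signal tried, after seeing the data.

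Leaving out each array in turn gave 0.00 to 0.42 for miR-451a and 0.57 to 0.74 for miR-486a-5p in intestine, -3.71 to -3.18 and -1.59 to -1.34 in serum, and 0.17 to 0.45 for fecal miR-486a-5p. A group left with 1 array was assumed to vary like the others. Irradiated feces minus serum for miR-451a ran from -2.01 to -1.08 and lost its call without replicate 2 or 3 of irradiated serum. Serum minus feces dose differences ran from -4.15 to -3.22 for miR-451a and from -1.58 to -1.39 for miR-486a-5p, and feces minus intestine for miR-451a from -0.36 to 0.21.

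Between sample types, miR-451a in control serum passed against intestine with the percentile over all miRNAs (1.64) and quantile normalization (2.82), and at 10 Gy missed it with normexp (-0.34). Feces minus intestine for miR-486a-5p at 0 Gy missed with quantile normalization (-0.47) and turned with no scaling (1.74), and at 10 Gy missed with normexp (-0.21) and quantile normalization (-0.47) and turned with no scaling (0.25). Irradiated feces minus serum for miR-451a missed with no scaling (-0.70). The dose differences missed with normexp for miR-451a, serum minus intestine (-0.69) and serum minus feces (-0.80), and with no scaling for miR-486a-5p, serum minus feces (-1.88). Feces minus intestine turned with normexp (0.11 and 0.20) and the percentile over all miRNAs (0.30 and 0.087).

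At probe level, normexp turned A_54_P1625 (-0.045) and A_54_P1692 (-0.052) in intestine and lost A_54_P1625 in serum (-0.51). With no scaling both intestine probes passed (0.72 and 0.28), the serum probes of miR-486a-5p missed (-2.23 and -2.26), and the fecal ones turned (-0.56 and -0.47). Of the other named miRNAs, serum miR-25-3p passed with the percentile over all miRNAs (-1.87), a floor 2 times higher (-0.96), array weights (-1.70) and 1 fit of all 6 groups (-1.63), intestine miR-210-3p (-0.093) and serum miR-25-3p (0.016) turned with normexp, serum miR-23a-3p with no scaling (-0.15), and serum miR-22-3p with quantile normalization (0.49), the mean over detected probes (0.027), slide row 2 (0.11) and without 1 array (-0.20 to 0.066).

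Samples sharing a replicate number correlated from -0.57 to 0.44 in their deviations in intestine and from -0.43 to 0.40 in feces, and at 0.28 and 0.44 in the 2 serum pairs, so the numbers were not taken to pair the samples; the replicate block changed no other member call. Without scaling, the median over all miRNAs tested moved to 0.62 in intestine, -0.84 in serum and -0.49 in feces, against 0.16, -0.11 and 0.15. Signal over background limits miR-451a in irradiated serum and miR-486a-5p in intestine and feces.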
